A study of Rattus norvegicus and Mus musculus with 9 samples.

Results

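The 44 genes described here encode proteins of the lysosome, the acidic compartment in which cells break down proteins, glycans and lipids, together with the transcription factors that switch these genes on. They were taken by symbol from a list of lysosomal proteases, hydrolases and membrane proteins; the list uses no measured value as a criterion, but it was drawn up with results of these data known. Of the 44, 40 had a probe set of their own among the 14506 named genes of the rat arrays, and all 44 did among the 19938 named genes of the mouse arrays. Tfe3, Ctso, Idua and Ids had no named probe set in the rat table and are described in mouse cells only.

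The data comprise 3 groups of 3 arrays each. Rat embryonic stem (ES) cells of strain DA were cultured in a medium called 3I, a name used for combinations of kinase inhibitors. Rat embryonic fibroblasts, also of strain DA, were cultured in GMEM with 10% fetal bovine serum. Mouse ES cells of strain C57/BL6 were cultured in that serum medium with leukaemia inhibitory factor (LIF), and feeder cells were taken away before RNA extraction. No such removal is stated for the rat ES cultures. Cell type and medium both differ between the rat groups, and their parts in a difference cannot be told apart. The serum content of 3I is not given in the sources used. Separate cultures are not stated for the arrays within a group, so p-values speak of the spread among the arrays alone, which may be technical. In bulk RNA, fewer cells of a type and less RNA per cell cannot be told apart.

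Lysosomal enzymes are made in the endoplasmic reticulum, most are tagged with mannose 6-phosphate in the Golgi, and receptors carry them to the lysosome, where a proton pump keeps the pH low. Cathepsins cut proteins, glycosidases and sulfatases take glycans and glycosaminoglycans apart from their ends, and small activator proteins present lipids to the lipid hydrolases. The related factors Tfeb, Tfe3 and Mitf bind a short palindromic DNA element in the promoters of many lysosomal genes, called the CLEAR element (coordinated lysosomal expression and regulation), and are held in the cytoplasm when nutrients are plentiful. In mouse ES cells Tfe3 and its regulator Flcn are known for their part in the exit from the naive state.

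Identity markers separated the rat groups as labelled. Rat ES cells had higher signals of all 7 measured pluripotency markers and lower signals of 8 of 10 fibroblast markers (limma adjusted p under 0.05 and at least 2-fold), all but Dcn and Fn1. On a linear scale, the summed signal of the 10 fibroblast markers was 7994, 8621 and 9385 on the 3 rat ES arrays and between 57454 and 60770 on the fibroblast arrays. Fn1, which was not called, had the highest rat ES mean of the 10 (log2 12.58, beside 13.44 in fibroblasts). It therefore weighs most in the rat ES sums, which understate how far the other markers differed. The fibroblast markers move with every member that was lower in rat ES cells, and their part in those results was not tested. In mouse ES cells all 8 pluripotency markers ranked above the middle of the array, at mean percentiles of 59.4 to 99.7 among all named genes, and 7 of 10 fibroblast markers did too (8.55 to 99.0). Macrophages and osteoclasts are rich in lysosomes. All 11 measured markers of these cells lay below the array medians in rat ES cells, and 10 of 11 did in fibroblasts. Their summed signal was 224 to 233 in rat ES cells and 539 to 643 in fibroblasts, where Cd14 was the marker above the medians. Limma called none of the 11 higher in rat ES cells and 1, Cd14, lower. Its log2 mean was 5.14 in rat ES cells and 8.65 in fibroblasts (log2 difference -3.51, limma adjusted p = 6.1e-08). Without the fold threshold, 1 was higher (Cd68, 0.57). The part of such cells in the members' signals was not tested. Of 10 markers of extraembryonic endoderm, an endocytic and lysosome-rich tissue, limma called none higher in rat ES cells and 1, Gata6, lower; at an unadjusted p under 0.05 with no fold threshold, 1 was higher (Lrp2) and 2 were lower. The summed signal of these 10 ran from 451 to 498 in rat ES cells and from 555 to 641 in fibroblasts, with 8 of 10 below the array medians in each group.

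Lysosomal genes moved in both directions between rat ES cells and fibroblasts. A gene was called where limma, which fits a linear model per gene and shares the spread across genes, gave a Benjamini-Hochberg adjusted p under 0.05 over all genes and the difference was at least 2-fold. By that rule 6 of the 40 members on the rat arrays rose in rat ES cells relative to fibroblasts (Manba, Mitf, Tfeb, Arsa, Ctsz and Grn) and 9 fell (Ctsk, Arsb, Lipa, Neu1, Gusb, Smpd1, Ctsf, Glb1 and Cd63). Over all 14506 genes, 20.7% were called, 10.6% higher and 10.1% lower, against 37.5% of the members, 15.0% higher and 22.5% lower. Members had high signals, and 37 of 40 lay at or above the median of mean level, where 31.8% of all genes were called. Of these 37 members, 37.8% were called, which is near that share. The median difference of the 40 members was 0.11 on the log2 scale, rat ES minus fibroblast, beside -0.0007 for all genes, and their mean was -0.15, of the opposite sign. Among genes at or above the median of mean level, the median difference was 0.14 for the 37 members and 0.17 for all genes. At like level the members' median was thus not above that of other genes.

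**Figure D1:**
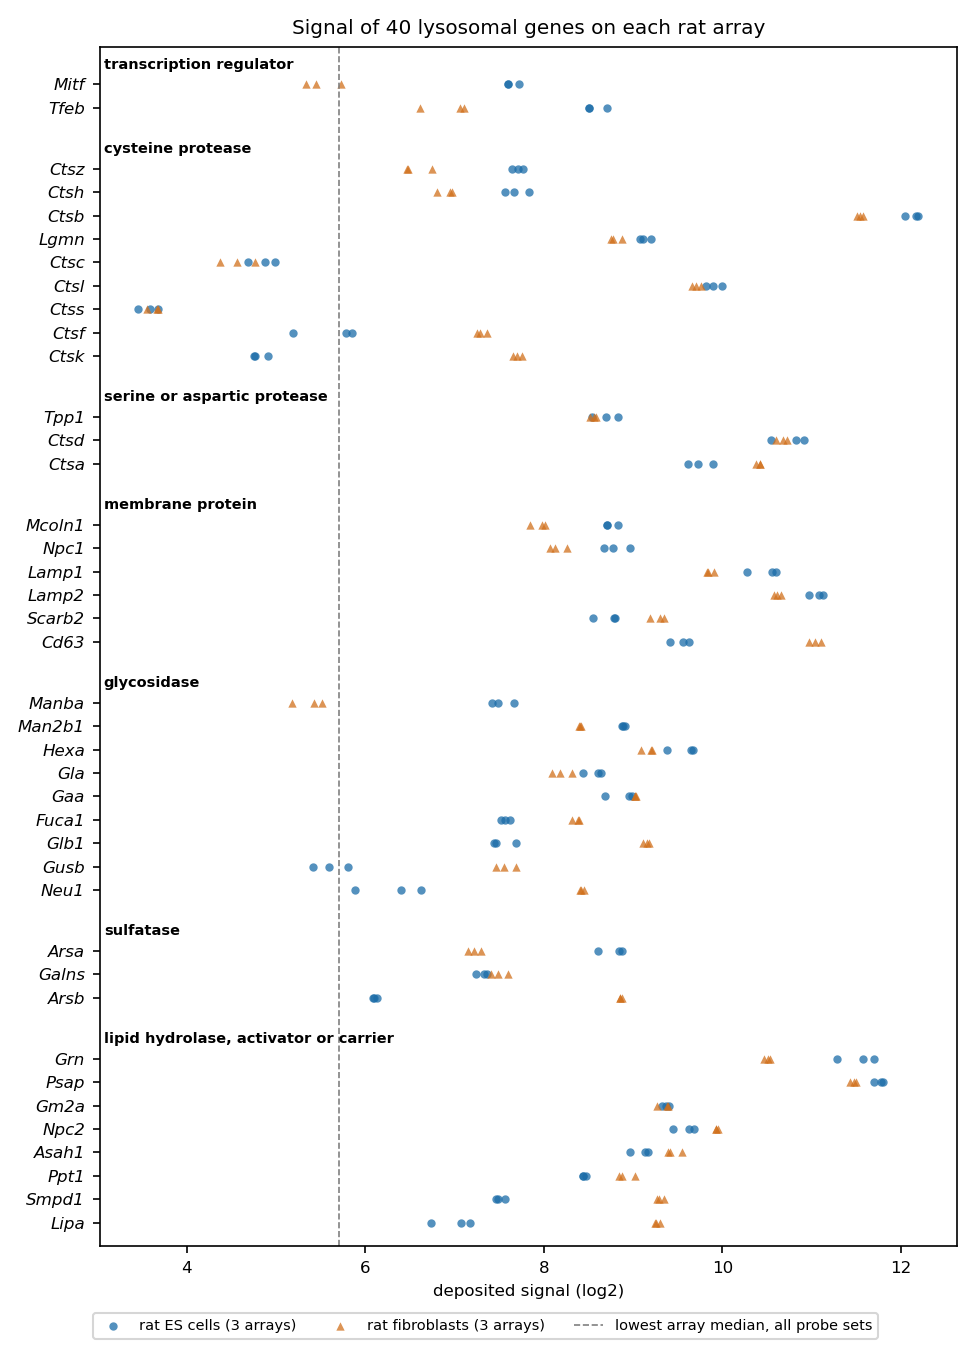
Deposited signal (log2, horizontal axis) of the 40 members on each of the 3 rat ES arrays (circles) and the 3 rat fibroblast arrays (triangles), grouped by role, with the lowest array median as a dashed line. The groups do not overlap in 35 of the 40 genes (87.5%, against 61.5% of all genes of any level). Among them, Tfeb and Mitf are higher and Ctsk, Arsb, Lipa and Neu1 lower in rat ES cells.

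Dropping the fold threshold, 32 of 40 members (80.0%) passed the adjusted p, 17 higher and 15 lower in rat ES cells, where 56.3% of all genes passed, 30.9% higher and 25.5% lower. The signals of the rat groups did not overlap in 35 members (87.5%), against 61.5% of all genes. Most members thus differed by less than 2-fold. The median size of the difference, regardless of direction, was 0.64 on the log2 scale, and 0.32 over all genes. These comparisons are with genes of any level, while 37 of 40 members lay at or above the median of mean level. Shares at like level were not computed for them, so they do not show an excess particular to the members. Just inside the threshold lay Grn (1.02) and Ctsz (1.14), and just outside lay Mcoln1 (0.80) and Fuca1 (-0.79).

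The 2 measured transcription factors were both higher in rat ES cells. Tfeb, the best known activator of lysosomal genes, had signals of 8.71, 8.50 and 8.50 (log2) on the rat ES arrays and of 6.61, 7.10 and 7.06 on the fibroblast arrays. Every rat ES array lay above every fibroblast array, a 3.13-fold difference (1.64 ± 0.13 SE on the log2 scale; limma adjusted p = 9.4e-06). Mitf, the relative best known from pigment cells and osteoclasts, was at 7.72, 7.60 and 7.60 in rat ES cells and at 5.73, 5.34 and 5.45 in fibroblasts. The groups again did not overlap, and the difference was 4.38-fold (2.13 ± 0.11 SE on the log2 scale; limma adjusted p = 4.55e-07). The fibroblast mean of Mitf lay below the lowest array median of 5.70, so the size of its fold is uncertain. Expression of these genes does not measure how much of the protein is in the nucleus.

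The DNA element these factors bind gives a way to look at the members' promoters. RefSeq's table for rat assembly GRCr8 held the 250 bases before and 50 after the start of 37 of the 44 members, and these were searched on both strands for the core CACGTG, for TCACGTG (the core with 1 flanking base, which contains the core) and for TCACGTGA (the core with both flanking bases, which contains the other patterns). The core was found in 8 of 37 members (21.6%) and in 6.42% of all 33469 promoters, or 7.01% of those of protein-coding genes. TCACGTG was found in 6 members (16.2%), in 3.2% of all promoters and in 3.68% of those of protein-coding genes. TCACGTGA was found in 3 members (8.11%), Lamp1, Mcoln1 and Ctsd. It was in 0.777% of all promoters and 1.02% of those of protein-coding genes. Lamp1, which encodes a major glycoprotein of the lysosomal membrane, held 5 copies of the core, and 1 promoter of the 33469 held that many. A match is a description of letters, not a measured binding site.

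**Figure D2:**
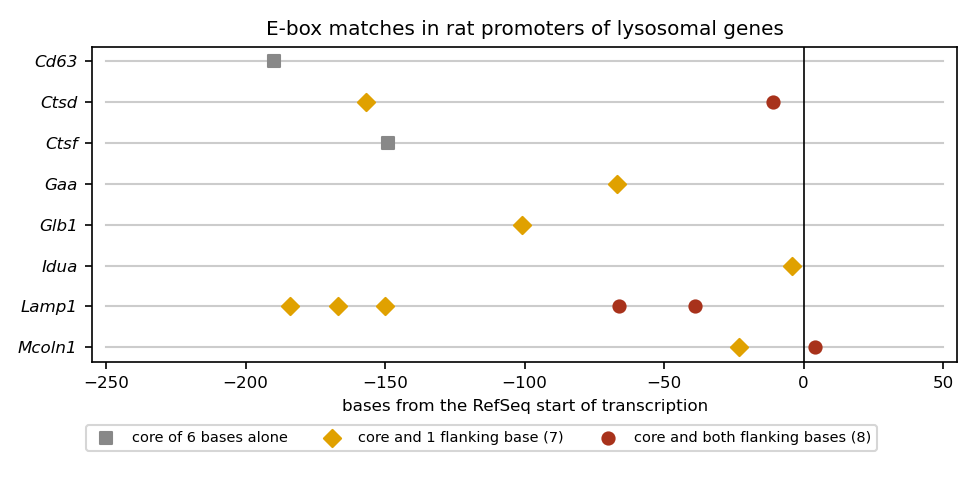
Position of each CACGTG match in the rat promoters of the 8 members that hold one, in bases from the RefSeq start (horizontal axis, negative before the start), with the symbol giving how many flanking bases also match. Lamp1 has 5 matches, Ctsd and Mcoln1 have 2 each, and the rest have 1.

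The stretches of promoter before the start that hold matches are shown for the 7 members measured on the rat arrays, so that the matches can be set beside each gene's difference. Each runs from 5′ to 3′ on the gene's strand and ends at or before the start, and capitals mark the match, with flanking bases where they fit. The TCACGTGA match of Mcoln1 lies after the start and is not in its stretch. The stretches lie at chr16:83075078-83075264 (minus strand) for Lamp1, chr12:6358218-6358257 (plus) for Mcoln1, chr1:206968822-206968995 (minus) for Ctsd, chr10:105028271-105028311 (plus) for Gaa, chr8:122963600-122963640 (plus) for Glb1, chr7:1921937-1921976 (plus) for Cd63 and chr1:211582003-211582042 (plus) for Ctsf, all in GRCr8.
Lamp1: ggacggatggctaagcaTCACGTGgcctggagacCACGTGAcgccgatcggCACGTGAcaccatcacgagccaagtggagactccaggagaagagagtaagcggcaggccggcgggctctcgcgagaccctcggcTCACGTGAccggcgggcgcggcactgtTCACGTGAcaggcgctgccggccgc
Mcoln1: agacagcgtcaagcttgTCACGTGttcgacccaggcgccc
Ctsd: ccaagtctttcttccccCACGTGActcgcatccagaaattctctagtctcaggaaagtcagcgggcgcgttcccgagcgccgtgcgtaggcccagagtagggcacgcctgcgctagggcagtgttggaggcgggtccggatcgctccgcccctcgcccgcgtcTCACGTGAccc
Gaa: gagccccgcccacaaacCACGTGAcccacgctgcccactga
Glb1: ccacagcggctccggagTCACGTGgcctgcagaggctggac
Cd63: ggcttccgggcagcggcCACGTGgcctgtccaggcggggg
Ctsf: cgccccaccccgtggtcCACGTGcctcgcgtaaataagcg

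The TCACGTGA matches of Lamp1 began 66 and 39 bases before the start and that of Ctsd 11 bases before it, while that of Mcoln1 began at base 4 after the start. The 7 genes did not move one way. Rat ES minus fibroblast, the log2 difference was 0.80 for Mcoln1, 0.62 for Lamp1, 0.09 for Ctsd, -0.15 for Gaa, -1.51 for Cd63, -1.62 for Glb1 and -1.69 for Ctsf. Their median was -0.15, and that of the 26 measured members whose promoter held no core was 0.16. With TCACGTG as the pattern, the median was 0.09 over 5 genes and 0.08 over the other 28. With TCACGTGA, the median was 0.62 over 3 genes, against -0.02 over the other 30.

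Among the 9 measured cysteine proteases, 1 was called higher and 2 lower in rat ES cells, and 3 more were higher at less than 2-fold. Ctsk, the collagen-degrading cathepsin K of osteoclasts, fell the most of all 40 members. Its signal was 4.77, 4.91 and 4.75 on the rat ES arrays, below the array medians, and 7.65, 7.75 and 7.70 on the fibroblast arrays. That is a 7.42-fold difference (-2.89 ± 0.07 SE on the log2 scale; limma adjusted p = 1.28e-08), whose size is uncertain because of the low signal in rat ES cells. Ctsf, a papain-like protease with a long propeptide, was at 5.19, 5.78 and 5.85 in rat ES cells and at 7.25, 7.36 and 7.28 in fibroblasts (-1.69 ± 0.16 SE on the log2 scale; limma adjusted p = 2.47e-05). Rat ES array 1 was the lowest for Ctsf, and the groups did not overlap. Ctsz, a carboxypeptidase, was higher, at 7.64, 7.77 and 7.71 in rat ES cells against 6.75, 6.48 and 6.47 in fibroblasts (1.14 ± 0.09 SE on the log2 scale; limma adjusted p = 8.43e-06).

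The other cysteine proteases differed by less than 2-fold. Ctsb, which encodes cathepsin B, averaged 12.13 ± 0.0827 on the rat ES arrays and 11.54 ± 0.0272 on the fibroblast arrays (log2 mean ± SD, n = 3), which is 1.51-fold higher (limma adjusted p = 9.05e-05). Ctsh, an aminopeptidase, differed by 0.78 on the log2 scale and Lgmn, the asparaginyl endopeptidase that processes other cathepsins, by 0.33. Ctsl, which encodes cathepsin L, missed the adjusted threshold (log2 difference 0.19, limma adjusted p = 0.0504), as did Ctsc (0.29, limma adjusted p = 0.0625), the activator of serine proteases in immune cells. Ctss, the cathepsin of antigen-presenting cells, had means of 3.58 and 3.63 and showed no detectable difference. Neither rat group had Ctss or Ctsc signals above the array medians, and there a low level of RNA cannot be told apart from a probe set with little response.

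None of the 3 other proteases was called by limma, and 1 had an unadjusted p under 0.05, which also passed after adjustment. This was Ctsa, a carboxypeptidase that also protects beta-galactosidase and neuraminidase, at 9.61, 9.73 and 9.89 in rat ES cells and at 10.38, 10.42 and 10.42 in fibroblasts (log2 difference -0.66, limma adjusted p = 0.000145). The aspartic protease gene Ctsd (0.09, limma adjusted p = 0.515) and the tripeptidyl peptidase gene Tpp1 (0.14, limma adjusted p = 0.217) had overlapping groups. For Ctsd, rat ES array 1 (10.54) lay below all fibroblast arrays and arrays 2 and 3 (10.82 and 10.91) above them.

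All 6 membrane proteins passed the adjusted p, 4 higher and 2 lower in rat ES cells, and 1 of them differed by 2-fold. Cd63, a tetraspanin of late endosomes and exosomes, was at 9.41, 9.56 and 9.62 in rat ES cells and at 11.04, 11.10 and 10.97 in fibroblasts. Every rat ES array was lower, by 2.84-fold on average (-1.51 ± 0.08 SE on the log2 scale; limma adjusted p = 5.8e-07). Mcoln1, the calcium channel of the lysosomal membrane, was the largest increase at 1.75-fold, with 8.71, 8.71 and 8.83 in rat ES cells and 7.98, 7.85 and 8.01 in fibroblasts (limma adjusted p = 2.24e-05). The cholesterol exporter gene Npc1 was 1.57-fold higher, Lamp1 1.54-fold and Lamp2, the receptor of chaperone-mediated autophagy, 1.36-fold. Scarb2, the receptor that carries glucocerebrosidase to lysosomes, was 1.48-fold lower (limma adjusted p = 0.000613).

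Of 9 measured glycosidases, 3 were called lower and 1 higher. Neu1, the sialidase that removes terminal sialic acid, was at 5.89, 6.40 and 6.62 in rat ES cells and at 8.42, 8.45 and 8.40 in fibroblasts (-2.12 ± 0.16 SE on the log2 scale; limma adjusted p = 6.55e-06). The rat ES arrays were spread over more of the scale than the fibroblast arrays, with array 1 lowest, and the difference was -1.92 without that array. Gusb, the beta-glucuronidase of glycosaminoglycan breakdown, was at 5.59, 5.41 and 5.81 against 7.69, 7.55 and 7.46, a 3.90-fold decrease in rat ES cells (SE 0.11 on the log2 scale, limma adjusted p = 9.84e-07). The rat ES mean of Gusb, 5.60, lay below the array medians. Glb1, the lysosomal beta-galactosidase whose activity is used as a stain for senescent fibroblasts, was at 7.46, 7.69 and 7.44 in rat ES cells and at 9.15, 9.11 and 9.18 in fibroblasts. This 3.07-fold difference (limma adjusted p = 5.89e-07) exceeded the spread between arrays.

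Manba, the beta-mannosidase of the last step of N-glycan breakdown, went the other way and had the largest increase of all members. Its rat ES signals were 7.42, 7.66 and 7.49 and its fibroblast signals 5.52, 5.43 and 5.18, a 4.43-fold difference (2.15 ± 0.11 SE on the log2 scale; limma adjusted p = 4.39e-07). The fibroblast signals lay below the array medians, and the fold is uncertain for that reason. The alpha-mannosidase gene Man2b1, which acts on the same glycans, was 1.40-fold higher (limma adjusted p = 0.000136). Smaller differences were found for Hexa (0.40), the alpha subunit of hexosaminidase, and Gla (0.37), the alpha-galactosidase, both higher, and for the fucosidase gene Fuca1 (-0.79), which was lower. All 3 passed the adjusted p. The acid alpha-glucosidase gene Gaa, which breaks down glycogen, did not (-0.15, limma adjusted p = 0.213).

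The sulfatases held both a strong increase and a strong decrease. Arsb, which removes sulfate from dermatan and chondroitin sulfate, was at 6.13, 6.10 and 6.09 on the rat ES arrays and at 8.85, 8.88 and 8.85 on the fibroblast arrays, 6.74-fold apart (-2.75 ± 0.06 SE on the log2 scale; limma adjusted p = 6.99e-09). It was the one member with several probe sets, and its other probe set differed by -2.38 (SE 0.08). Arsa, which removes sulfate from the myelin lipid sulfatide, was at 8.61, 8.88 and 8.84 in rat ES cells and at 7.22, 7.30 and 7.15 in fibroblasts, 2.93-fold higher (SE 0.09 on the log2 scale, limma adjusted p = 1.07e-06). In neither gene did the groups overlap. Galns, a sulfatase for keratan and chondroitin 6-sulfate, missed the adjusted threshold at -0.19 (limma adjusted p = 0.0656).

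The lipid hydrolases, activators and carriers were read together with Grn, which is none of these. Of these 8 genes, 2 were called lower and 1, Grn, higher. Lipa, the acid lipase that frees cholesterol from its esters, was at 6.74, 7.17 and 7.07 in rat ES cells and at 9.25, 9.30 and 9.24 in fibroblasts, 4.83-fold lower (-2.27 ± 0.11 SE on the log2 scale; limma adjusted p = 4.02e-07). Smpd1, the acid sphingomyelinase, was at 7.46, 7.56 and 7.49 against 9.27, 9.35 and 9.29, 3.48-fold lower (SE 0.07 on the log2 scale, limma adjusted p = 8.1e-08). The rat ES arrays lay below the fibroblast arrays throughout for both enzymes. Grn, whose product progranulin is a secreted growth factor that is cut into granulins in the lysosome, was at 11.28, 11.57 and 11.70 in rat ES cells and at 10.53, 10.47 and 10.51 in fibroblasts (1.02 ± 0.11 SE on the log2 scale; limma adjusted p = 4.38e-05). Its call rested on the fold threshold: the difference was 0.99 without rat ES array 2, 0.93 without rat ES array 3 and 1.00, just under 2-fold, without fibroblast array 2.

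Psap, the precursor of the saposins that activate sphingolipid hydrolases, was 1.22-fold higher in rat ES cells, and the ganglioside activator gene Gm2a differed by 0.02. The cholesterol carrier gene Npc2 (-0.35), the ceramidase gene Asah1 (-0.36) and the palmitoyl thioesterase gene Ppt1 (-0.46) were lower by less than 2-fold, and each passed the adjusted p. Genes of one lipid route differed in direction: Npc1 was higher while Npc2 and Lipa, which act beside or before it in the release of cholesterol, were lower.

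**Figure D3:**
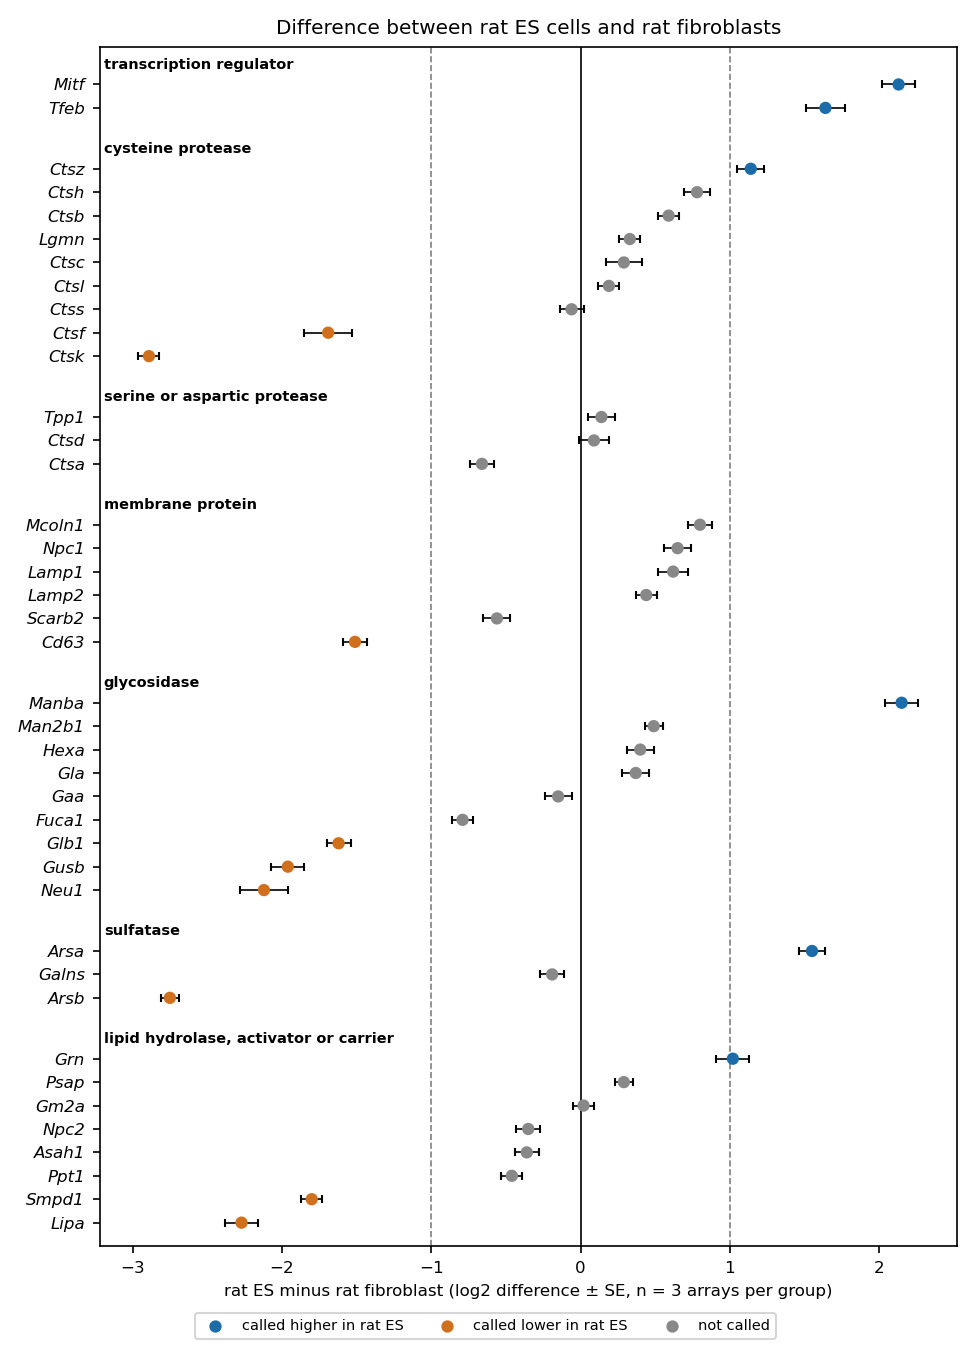
Log2 difference, rat ES minus rat fibroblast, with its limma standard error (n = 3 arrays per group) for the 40 members by role, with dashed lines at 2-fold. The 6 members called higher run from 1.02 (Grn) to 2.15 (Manba) and the 9 called lower from -1.51 (Cd63) to -2.89 (Ctsk). Cysteine proteases, glycosidases and sulfatases hold calls in both directions. The lipid group, drawn with Grn, does so only through Grn.

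One rat ES array stood lower for these genes. Relative to array 1, 32 of 40 members had a higher signal on rat ES array 2 (median 0.14 on the log2 scale) and 34 of 40 on array 3 (median 0.15). Genes at or above the median of level were higher in 59.1% and 58.3% of cases, with medians of 0.03. Without array 1, the same number of members were called, 6 higher and 9 lower, and the members' median difference was 0.20; it was 0.06 without rat ES array 2 and 0.07 without array 3. The summed linear signals of the marker lists also differed between these arrays. On rat ES arrays 1, 2 and 3, fibroblast markers summed to 7994, 8621 and 9385, extraembryonic endoderm markers to 451, 459 and 498, and pluripotency markers to 11350, 11314 and 10836. Fn1 weighs most in the fibroblast marker sums and varied little over these arrays (SD 0.0232 on the log2 scale, beside 0.423 for Col1a1). Those sums can thus understate a change in the other fibroblast markers. The part of these marker signals in the members' shift was not tested. No such shift was seen between fibroblast arrays 1 and 2, where 20 of 40 members were higher on array 2. On fibroblast array 3, 10 of 40 members were higher than on array 2 (median -0.05). Of genes at or above the median of level, 39.1% were higher there (median -0.03).

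Genes around the lysosome, in lists that hold none of the 44, were read by the same rule. Over all genes, 10.6% were called higher and 10.1% lower. At or above the median of mean level, 16.7% were called higher and 15.1% lower. Without the fold threshold, 30.9% of all genes were higher and 25.5% lower. The counts of each list that follows are to be read beside these shares, and no list was tested. Of 16 subunits and accessory proteins of the vacuolar ATPase, the proton pump that acidifies lysosomes, limma called 4 higher and 0 lower in rat ES cells (median 0.52 on the log2 scale). Without the fold threshold 12 were higher and 2 lower, at an adjusted as at an unadjusted p under 0.05. The increases were led by the membrane subunit gene Atp6v0a1 (7.56 in fibroblasts, 9.75 in rat ES cells, log2 difference 2.19) and the accessory protein gene Atp6ap2 (1.58). Of 19 further lysosomal membrane proteins, 4 were called higher and 2 lower (median 0.41). Cln3, the gene of juvenile neuronal ceroid lipofuscinosis, and Laptm4b both differed by 2.17, while Sidt2, a lysosomal membrane protein linked to RNA uptake, fell by 1.30 and Laptm4a, the paralog of Laptm4b, by 1.23.

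Among 22 genes of enzyme sorting and lysosomal fusion, 4 were called higher and 1 lower (median 0.43). Gga3, an adaptor for mannose 6-phosphate receptors (1.45), and Vps33a, a subunit of the tethering complex for lysosomal fusion (1.35), were higher, and the sorting receptor gene Sort1 was lower (-1.54). Of 20 genes of nutrient sensing at the lysosome, which decides where Tfeb and Tfe3 reside, 5 were called higher and 1 lower (median 0.33). Rragd, a GTPase that brings mTORC1 to the lysosome, had the largest increase (1.64), followed by Depdc5 (1.33), a brake on mTORC1. The fibroblast mean of Rragd, 5.02, lay below the array medians, so the size of its fold is uncertain. Flcn, which acts on Rag GTPases and helps to keep Tfe3 out of the nucleus, was higher by 1.15, from 6.69 to 7.84. RragB fell by 1.21, to a rat ES mean of 5.11 that lay below the array medians. The values of Flcn are named outside the rule for choosing genes, because of its link to Tfe3.

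The other degradative lists had medians between -0.07 and 0.01. Of 19 further lysosomal hydrolases, 5 were called higher and 1 lower (median -0.04), with the lipid amidase gene Naaa (2.25) and the phospholipase gene Pla2g15 (1.35) higher and the carboxypeptidase gene Scpep1 (-1.55) lower. Without the fold threshold, 8 were higher and 7 lower at a limma adjusted p under 0.05. The fibroblast mean of Naaa, 4.96, lay below the array medians, so the size of its fold is uncertain. Of 5 cystatins, the inhibitors of cysteine cathepsins, Cstb (1.75) and Cst6 (1.00) were called higher and the secreted Cst3 (-1.35) lower. The call of Cst6 was lost at 0.92 without rat ES array 2, 0.97 without rat ES array 3 and 0.90 without fibroblast array 2. Its fibroblast mean, 5.28, lay below the array medians. Of 26 autophagy genes, 4 were called lower and 2 higher (median -0.07), and without the fold threshold 12 were lower and 6 higher. Wipi1, a phosphoinositide-binding protein of early autophagosomes, fell by 2.13 and Gabarapl1, a member of the family that coats them, by 2.10, while the lipid kinase gene Pik3c3 (1.32) and Wipi2 (1.11) were higher.

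**Figure D4:**
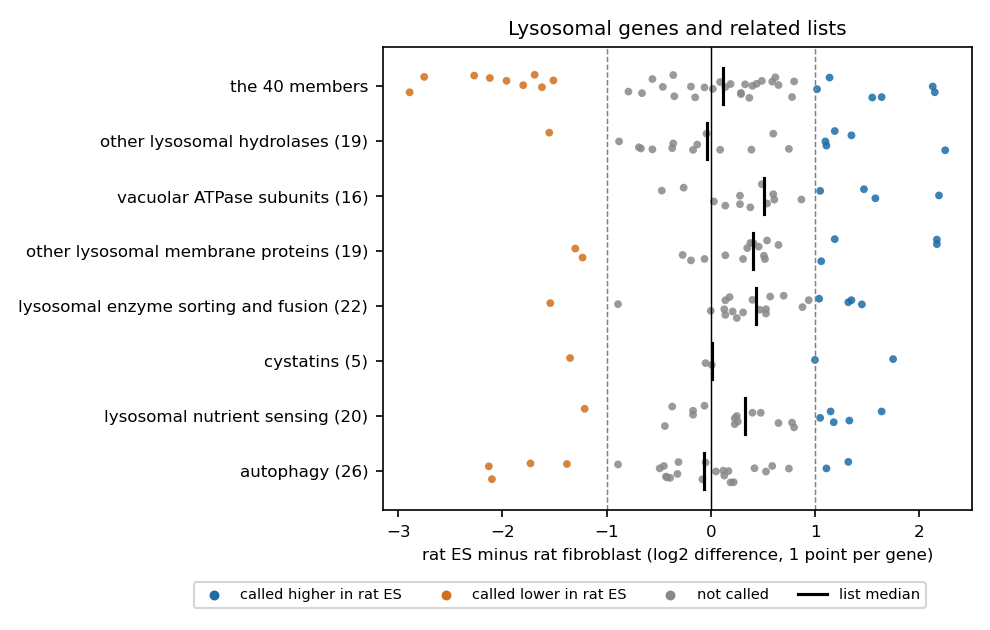
Log2 difference, rat ES minus rat fibroblast, of each gene (1 point per gene) for the 40 members and 7 related lists, with the list median as a bar and dashed lines at 2-fold. The medians of the vacuolar ATPase, membrane, sorting and nutrient sensing lists lie between 0.33 and 0.52, and those of the members, other hydrolases, cystatins and autophagy genes between -0.07 and 0.11. Over all genes at or above the median of level, the median was 0.17.

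Mouse ES cells were measured on another array platform, so their genes were read as within-array percentiles among the 12114 symbols shared by both tables. A gene's rank on either platform also depends on its probes, and that part of a difference between the species was not tested. The mouse arrays share many values: 21 of the 44 members had the same value on all 3, so their spread is not a measure of replicate error, and no test was made. The median percentile of the 40 shared members was 77.9 to 79.4 on the mouse ES arrays, 81.1 to 83.3 on the rat ES arrays and 84.5 to 85.4 on the rat fibroblast arrays. Mouse and rat ES cells differed by at least 20 percentile points in mean rank for 12 members (30.0%), 5 higher and 7 lower in mouse ES cells, against 18.7% of all shared genes, 8.98% higher and 9.75% lower, and 28 members lay closer.

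The transcription factors were among those that ranked lower in mouse ES cells. Tfeb was at percentiles 51.1, 51.5 and 51.0 on the mouse ES arrays and at 83.0, 79.5 and 79.4 on the rat ES arrays, with a fibroblast mean of 53.8. Mitf was at 27.1, 26.5 and 27.2 in mouse ES cells and at 67.0, 64.3 and 63.9 in rat ES cells, with a fibroblast mean of 31.0. For both genes the mouse ES rank was thus nearer to that of rat fibroblasts than to that of rat ES cells, and the deposited mouse value was the same on all 3 arrays. Tfe3, not measured in rat cells here, was at percentiles 89.5, 90.4 and 89.4 on the mouse arrays among all named mouse genes. On array 1, Ctso was at 10.3, Idua at 63.3 and Ids at 50.7.

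The largest gaps were in Ctsh, with mean percentiles of 15.3 in mouse ES and 65.9 in rat ES cells, and in Ctsc, with 70.6 in mouse ES and 20.9 in rat ES cells. Lamp2 was at a mean of 56.2 in mouse ES and 98.4 in rat ES cells, while Lamp1 was at 97.2 and 96.9. Arsa (55.8 and 83.7), Lipa (32.9 and 54.6) and Cd63 (71.4 and 91.9) also ranked lower in mouse ES cells. Ctsz (95.5 and 66.3), Ctsf (60.4 and 33.9), Gusb (59.3 and 33.9) and Neu1 (67.4 and 44.7) ranked higher there. Ctsf and Gusb were thus low in rat ES cells beside both rat fibroblasts (60.5 and 65.4) and mouse ES cells. Genes near the top in rat ES cells had little room to rank higher in mouse ES cells, so only a similar or lower rank could be seen. Psap was at 99.0 in mouse ES and 99.3 in rat ES cells, Ctsd at 98.1 and 97.7, Ctsl at 96.2 and 94.4, and Grn at 96.2 and 99.1, while Ctsb was at 85.8 and 99.5, beside the wider gaps of Lamp2 and Cd63. Ctsk was at 8.5 in mouse ES, 20.0 in rat ES and 67.8 in rat fibroblasts, so it was low in ES cells of both species.

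**Figure D5:**
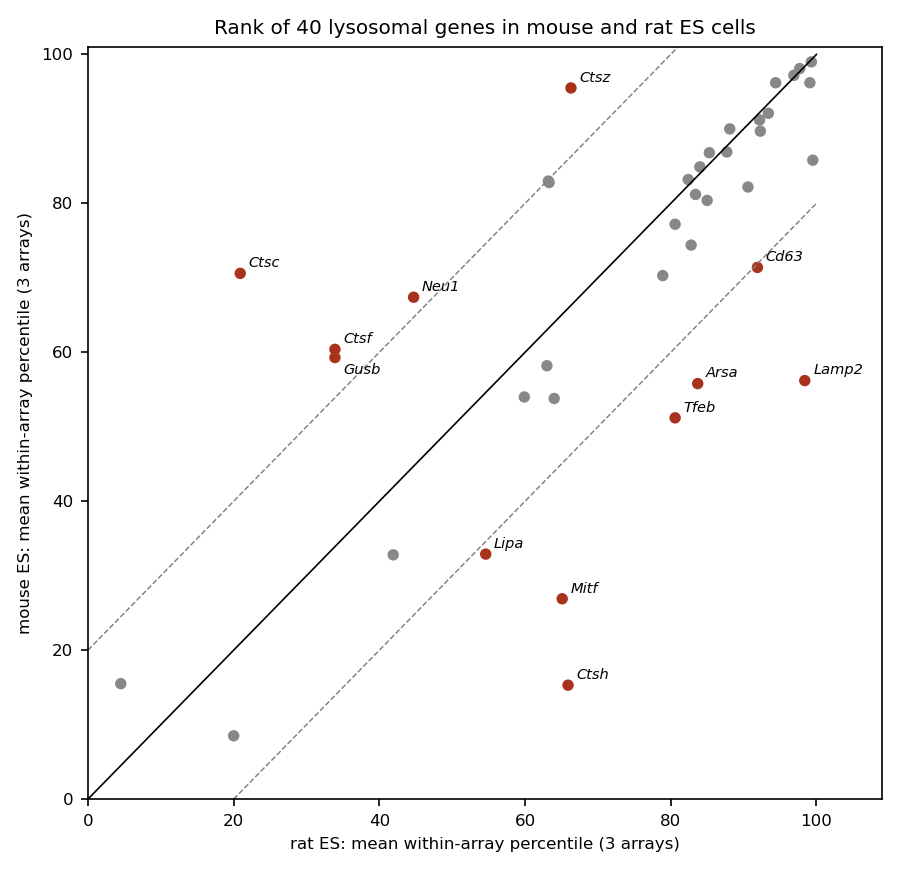
Mean within-array percentile of the 40 shared members in rat ES cells (horizontal axis) and mouse ES cells (vertical axis), 3 arrays each, with the line of equal rank and dashed lines at 20 points. The 12 named genes lie outside the dashed lines, 7 of them lower and 5 higher in mouse ES cells, and the other 28 lie between.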

How the data were processed

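Per the labels, total RNA was labelled with biotin for arrays. For 6 rat and 3 mouse arrays the authors deposited tables of log2 signals, 1 per probe set; the scale was inferred from the values. The background correction, normalization and genome build are not given in the sources used. Array medians ran from 5.70 to 5.74 (rat) and 4.75 to 4.77 (mouse).

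Probe sets with 1 symbol in the platform annotation were kept (15310 of 29215 rat, 21789 of 35557 mouse), and for each symbol the probe set with the highest mean. The rat comparison used lmFit and eBayes of limma 3.58.1 under R 4.3.3, with p-values Benjamini-Hochberg adjusted over all genes, and the code was tested on simulated data. The members and lists were chosen with earlier results of these data known. Values on every array are given for the called members, which include Tfeb and Mitf, and percentiles on every mouse array for Tfe3, and differences for the 2 largest called genes of each other list in each direction. Of the list symbols, 9 of 28 further hydrolases and at most 2 in any other list had no named rat probe set. Detection limits are unknown, and the number of arrays limits the precision. Same-numbered rat arrays did not deviate together (r = -0.00044, 0.031 and -0.000296), so numbers were not treated as pairs. Promoters are from RefSeq (GRCr8), with no entry used for Ppt1, Hexa, Psap, Ctsb, Arsa, Arsb and Asah1.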

Additional observations from a re-analysis of the deposited data

How the results depend on the processing

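The number of members called kept within 1.5 times of 6 higher and 9 lower under quantile normalization, median centring, both filters on level, the mean of all probe sets, trend and robust eBayes, an adjusted p under 0.01 and the replicate block, and no called member changed sign. The replicate block gave 2996 genes, 6 members higher and 9 lower, as without it, and their median difference stayed 0.11; array numbers are not known to pair samples. The threshold mattered most: without a fold threshold 8172 genes were called, with 17 members higher and 15 lower, and at 4-fold 995 genes, with 2 and 4. Leaving out each array gave 2994 to 3035 genes, 5 to 6 members higher, 9 lower and a median difference of 0.06 to 0.20. The members' median mouse percentile of 78.8 was 84.1 among all named genes, 76.1 over the 37 members left when genes under the 25th percentile of level were dropped and 65.1 over the 5 members with 3 different mouse values; without each mouse array it ran from 78.5 to 79.2. Signals below the array medians limit the folds of Ctsk, Ctsf, Gusb, Mitf and Manba, and in the related lists those of Naaa, Rragd, RragB and Cst6. Grn alone among the members lost its call on leaving out an array. In the related lists, quantile normalization ended the calls of Mtor (1.00, just under 2-fold), Slc17a5 (0.98) and Vps26a (0.99) and called Fn1 (-1.02), and median centring called Vps16 (1.00).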

Other observations

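Some members lie near each other in the genome and differed in their values. In the RefSeq order of rat protein-coding genes, Ctsk and Ctss on chromosome 2 have 1 gene between them. Ctsk differed by -2.89 on the log2 scale between rat ES cells and fibroblasts, and Ctss by -0.06, at signals below the array medians. Smpd1 and Tpp1 on chromosome 1 have 9 genes between them and differed by -1.80 and 0.14. No other pair of neighbouring members had fewer than 92 genes between them.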
